A study of Papio papio with 23 samples.

Results

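The genes described here encode the nuclear subunits of the mitochondrial respiratory chain and of ATP synthase, measured in whole blood of irradiated baboons. They were chosen by name: the array's gene name starts with NDUFA, NDUFB, NDUFC, NDUFS, NDUFV, UQCR, ATP5, or COX with a following digit of 4 to 8, and some probe of the gene was well above background on at least 4 of 23 arrays. Of 88 names that match, 84 passed the second condition, out of 21130 genes of the array that passed it and 36337 gene names in all. COX8C, on 5 arrays, lay just inside this limit, NDUFAF4, on 3 arrays, just outside it, and COX7B2 and COX4I2, on 1 array each, and NDUFA4L2, on 0 arrays, were the other names left out. Besides subunits, the 84 include 3 assembly factors of complex I and 5 other names that the rule takes, such as the pseudogene UQCRBP1. Levels are log2 intensities minus the 75th percentile of the same array, so that 0 is the level of a probe at that percentile and a difference of 1 is a 2-fold change of signal.

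The arrays hold RNA of adult male Papio papio (mean age 8.1 ± 3.3 years) exposed to gamma rays from a cobalt source, over the whole body or a part of it, at an equivalent whole-body dose of 2.5 Gy or 5 Gy. The labels group the animals by severity of the haematological acute radiation syndrome, as HARS categories. The category H2-3 (medium to severe) holds samples of 5 numbered baboons on each of 2 days, 1 day and 2 days after exposure. The category H1-2 (low to medium) holds samples of 4 numbered baboons on each of the same days. It is not settled that a number marks the same animal on both days. The group H0 (healthy) holds 5 samples taken before irradiation. The labels give neither the dose nor the field of each animal, and they do not say which irradiated animals gave the H0 samples. The array carries human probes, and mismatches to the baboon sequences were not examined.

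The respiratory chain passes electrons from NADH and succinate to oxygen and pumps protons across the inner mitochondrial membrane. Complex I oxidises NADH, complex III passes electrons from ubiquinol to cytochrome c, complex IV (cytochrome c oxidase) reduces oxygen, and ATP synthase lets the protons flow back to make ATP. Core subunits carry the catalysis, while accessory subunits build and stabilise the complexes. In blood, lymphocytes, monocytes and platelets carry mitochondria that respire, whereas neutrophils rely largely on glycolysis and mature red cells have no mitochondria.

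The members were detected on nearly every array. Of the 84, 80 (95.2%) were well above background on all 23 arrays, against 69.5% of the 21130 genes, and 77 had a mean level above 0. The mean level over the 84 members lay between 3.47 and 4.01 on every array. By group it was 3.73 ± 0.07 in H2-3 on day 2, 3.74 ± 0.14 in H2-3 on day 1 (SD, n = 5 each), 3.74 ± 0.20 in H1-2 on day 2, 3.57 ± 0.17 in H1-2 on day 1 (SD, n = 4 each) and 3.68 ± 0.08 in H0 (SD, n = 5). The 5 ranges overlap. The median SD within groups was 0.27 for the members and 0.44 for all genes, and among genes with a mean level above 0 it was 0.26 and 0.38. ATP5G1 varied least (SD 0.14), and COX8C, the testis isoform of a small complex IV subunit, varied most (SD 1.35). COX8C was dim. In H2-3 it was well above background on 0 of 5 arrays of day 1 and 2 of 5 arrays of day 2. In H1-2 these were 0 of 4 and 1 of 4 arrays, and in H0 2 of 5.

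Lists of blood cell markers also shifted. The counts below stand beside 28.4% of all genes called in H2-3 on day 1, 14.8% in H2-3 on day 2 and 8.59% in H1-2 on day 1. On day 1 in H2-3, 8 of 9 T cell markers, 5 of 7 B cell markers and 8 of 9 markers of NK and cytotoxic cells were lower than in H0, with medians of -2.33, -3.21 and -2.54 on the log2 scale. All 8 tested neutrophil markers and 7 of 8 monocyte markers were higher, with medians of 1.70 and 1.49, while 0 of 9 erythroid markers passed the test. The mean level of the T cell list lay between 0.20 and 2.46 in H2-3 on day 1, against 3.11 to 4.08 in H0, and that of the neutrophil list between 5.85 and 6.38, against 2.95 to 5.38. A day later in H2-3, the genes lower than in H0 were 2 of 9 T cell markers, 2 of 9 NK markers and 6 of 7 B cell markers, whereas 5 of 8 neutrophil, 6 of 8 monocyte and 5 of 8 platelet markers were higher (median of the platelet list 1.45). On day 1 in H1-2, 4 of 9 T cell and 6 of 9 NK markers were lower than in H0. There 5 of 8 neutrophil and 3 of 8 monocyte markers were higher, with 0 of 7 B cell markers past the test. On day 2 in H1-2 none of the marker lists held a gene past the test, and 0% of all genes passed it. Means of the lists were then 5.25 for platelets (3.89 in H0), 5.73 for monocytes (5.185) and 4.69 for neutrophils (4.19). They were 3.20 for T cells (3.58), 3.00 for B cells (3.65), 2.14 for NK cells (2.99) and 7.44 for erythroid cells (7.73). In whole blood, fewer cells of a type and less RNA per cell cannot be told apart, and the part of these shifts in the results below was not tested. The label of whole blood was checked by these markers: 9 of 9 erythroid, 9 of 9 T cell and 8 of 9 neutrophil markers passed the detection filter.

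**Figure D1:**
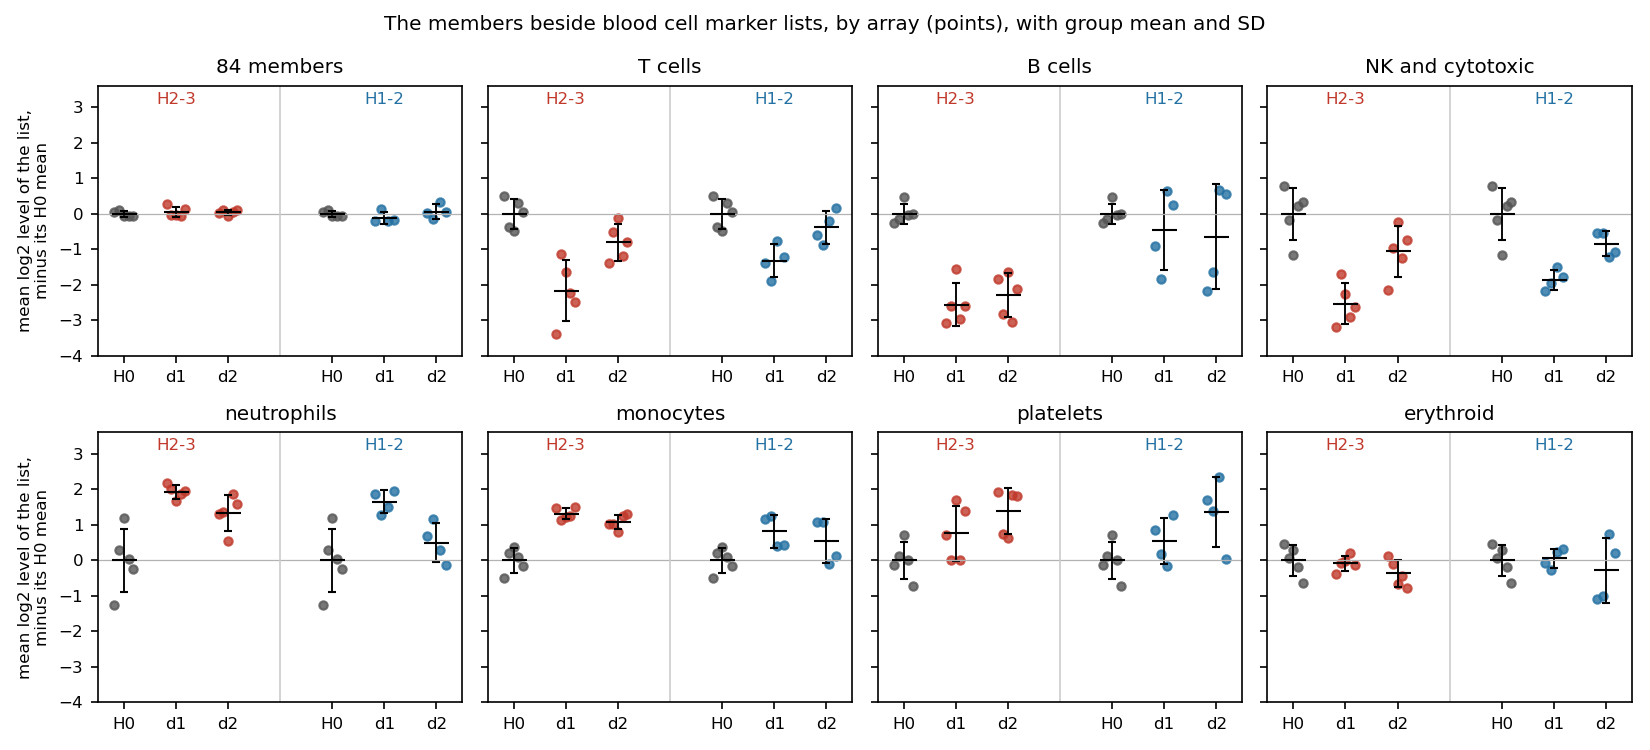
Mean log2 level of the 84 members and of 7 blood cell marker lists on each array, minus the mean of the list over the H0 arrays. Points are arrays, bars are group means with SD, the red points are H2-3, the blue points H1-2, and the same 5 H0 arrays (grey) are drawn beside both; the mean of the members lies between -0.21 and 0.33 of its H0 mean on every array.

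Blood of H2-3 animals on day 1 was compared with H0 to find which subunits of the chain differ on the first day in the more severe category. In this comparison 10 of 84 members passed the test at an adjusted p under 0.05 (limma, Benjamini-Hochberg over all 21130 genes), which is 11.9%, against 28.4% of all genes. Of these 10, 7 were higher (15.0% of all genes were) and 3 were lower (13.5% of all genes were). Those higher and described here were the complex I subunits NDUFC2, NDUFV3 and NDUFB7, the complex III core protein UQCRC1, the stalk subunit ATP5F1 of ATP synthase, and UQCRBP1, a pseudogene of the complex III subunit UQCRB. The 3 were the complex I subunit NDUFA12, ATP5G1, a gene for the membrane ring of ATP synthase, and ATP5S, a coupling factor of ATP synthase. The median difference was 0.08 over the members and 0.14 over all genes. No member differed by 1 or more, whereas 18.3% of all genes did. Among genes with a mean level above 0, 9 of 77 members (11.7%) and 34.3% of all 10460 such genes passed the test, and the median size of the difference was 0.21 for those members and 0.43 for those genes.

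The split between higher and lower calls depended on how the arrays were scaled. The 75th percentile taken over probes detected on every array gave 4 higher and 12 lower members (19.0%, against 27.9% of all genes). Quantile normalisation and the authors' deposited values each gave 3 higher and 17 lower (23.8%, against 28.2% and 28.3% of all genes), and normexp background correction gave 11 higher and 6 lower (20.2%, against 25.4%). The percentile over detected probes moved the median of all genes by -0.19, and relative to the median of all genes the members' median was then -0.05, as with the percentile over all probes. Under quantile normalisation the members' median was -0.18 and that of all genes 0.06. The deposited values gave nearly the same medians, -0.19 and 0.06, so these 2 do not count as independent among the 5 scalings. Under all 5 scalings, ATP5F1 and NDUFC2 were called higher, and ATP5G1, ATP5S and NDUFA12 were called lower. NDUFV3, NDUFB7, UQCRC1 and UQCRBP1 had positive differences under all 5 but passed the test under 3, 2, 3 and 4 of them. The sign of the members' median thus changed with the scaling, from 0.08 and 0.06 under the percentile over all probes and normexp to -0.10, -0.18 and -0.19 under the other 3.

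**Figure D2:**
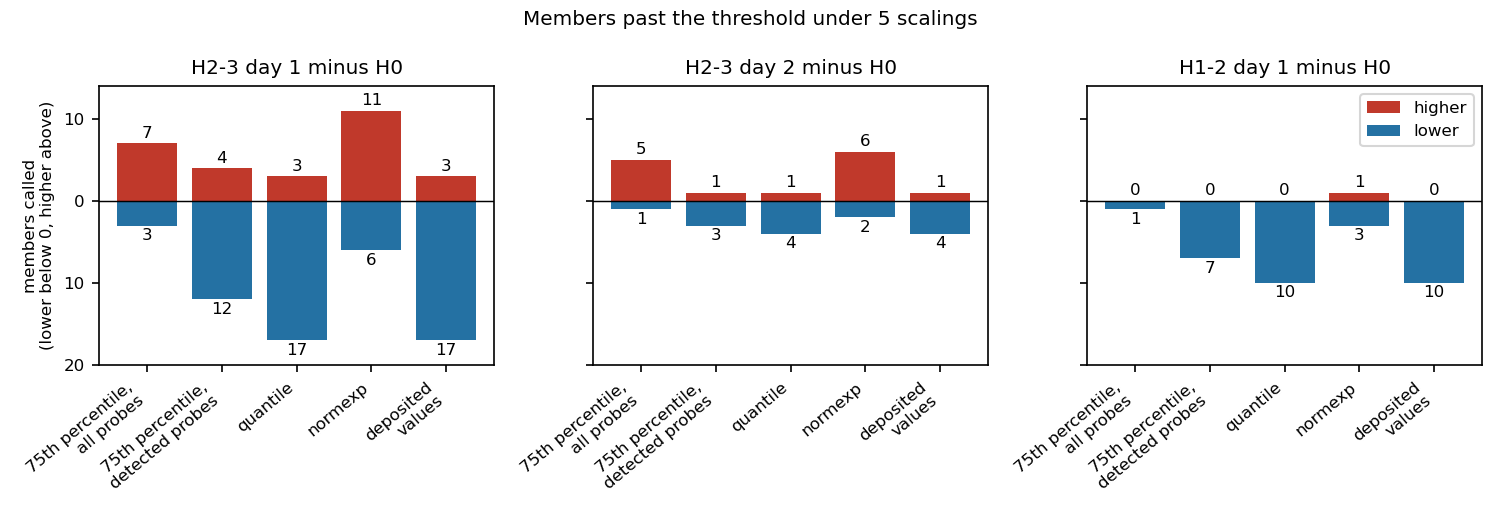
Number of the 84 members past an adjusted p of 0.05 under 5 scalings, with members higher than in H0 above the line and members lower than in H0 below it. In H2-3 on day 1 the split is 7 higher and 3 lower with the percentile over all probes and 3 higher and 17 lower with quantile normalisation.

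The levels of the called members were each read from 1 probe of 60 bases, shown here for 7 of them whose probe has a stop-free reading frame, since these are the stretches of transcript that the differences concern. Positions are those of the scanner files on the human build hg19, and where a probe lies over more than 60 bases of genome the matching stretch is interrupted there. The probe of NDUFC2 lies at chr11:77790643-77790702 (minus strand), that of NDUFV3 at chr21:44328997-44329056 (plus) and that of NDUFB7 at chr19:14677745-14682759 (minus). The probe of NDUFA12 lies at chr12:95387952-95388011 (minus), that of UQCRC1 at chr3:48637106-48637517 (minus), that of ATP5G1 at chr17:46970798-46971772 (plus) and that of ATP5S at chr14:50790809-50792360 (plus). They read 5′ to 3′, with no base marked, as follows.
NDUFC2: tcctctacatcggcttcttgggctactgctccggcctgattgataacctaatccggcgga
NDUFV3: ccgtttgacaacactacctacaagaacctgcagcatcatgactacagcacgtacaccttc
NDUFB7: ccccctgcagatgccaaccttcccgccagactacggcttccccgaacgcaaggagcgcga
NDUFA12: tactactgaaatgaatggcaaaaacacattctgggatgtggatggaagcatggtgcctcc
UQCRC1: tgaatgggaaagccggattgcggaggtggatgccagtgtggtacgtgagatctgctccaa
ATP5G1: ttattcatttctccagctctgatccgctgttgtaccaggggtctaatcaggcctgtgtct
ATP5S: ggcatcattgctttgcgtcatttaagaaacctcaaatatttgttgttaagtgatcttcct

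In the core of complex I, NDUFV1, which binds the flavin that takes electrons from NADH, differed by 0.18 (SE 0.15, adjusted p 0.409), and NDUFS1, the largest iron-sulfur subunit, by 0.06 (SE 0.15, adjusted p 0.791), both from limma with overlapping groups.

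Of the 30 accessory subunits of complex I, 3 were higher and 1 was lower. NDUFC2, a subunit of the membrane arm, had levels of 5.76, 5.10, 5.20, 5.23 and 5.65 in H2-3 on day 1, against 4.21, 4.57, 5.02, 4.38 and 4.50 in H0. Every H2-3 array lay above every H0 array, and the difference was 0.85 (SE 0.20, 1.80-fold, adjusted p 0.00383, limma). NDUFC2 has a second probe, for another transcript, which was well above background on 0 of 23 arrays. Its partner by name, NDUFC1, another small membrane-arm subunit, differed by -0.44 (SE 0.18, adjusted p 0.0637, limma), and it was called lower under the other 4 scalings, at -0.44 to -0.72. NDUFV3, a subunit beside the NADH-oxidising site, had levels of 4.03, 3.85, 3.79, 3.84 and 4.40 in H2-3 on day 1, against 3.41, 3.52, 3.27, 3.52 and 3.17 in H0. These groups do not overlap either (difference 0.60, SE 0.16, adjusted p 0.00779, limma). NDUFB7, on the outer face of the membrane arm, stood between 4.54 and 4.81 in H2-3 on day 1 and between 3.65 and 4.46 in H0, without overlap, a difference of 0.53 (SE 0.17, adjusted p 0.0255, limma).

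NDUFA12, an accessory subunit joined late to complex I, went the other way. It had levels of 2.49, 2.35, 2.23, 1.86 and 2.54 in H2-3 on day 1, against 3.01, 2.82, 2.46, 2.83 and 3.18 in H0. H0 sample 3 lay within the range of H2-3, and the difference was -0.56 (SE 0.19, adjusted p 0.0306, limma). A second NDUFA12 probe was well above background on 1 of 23 arrays. NDUFB8, a membrane-arm subunit, lay just short of the threshold at -0.45 (SE 0.17, adjusted p 0.0504, limma) and was called lower under the other 4 scalings, at -0.47 to -0.70. A second probe of NDUFB8 differed by -0.45 as well. The 3 tested assembly factors of complex I, NDUFAF1, NDUFAF2 and NDUFAF3, differed by -0.01, 0.01 and 0.13, and none passed the test.

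In complex III, 1 of 8 subunits was called. UQCRC1, a core protein on the matrix side, had levels of 6.06, 5.78, 5.60, 5.93 and 6.57 in H2-3 on day 1, against 5.05, 5.05, 5.40, 5.67 and 4.92 in H0. Only H0 sample 4 reached into the range of H2-3, and the difference was 0.77 (SE 0.20, 1.71-fold, adjusted p 0.00607, limma). UQCRC2, the other core protein of the same dimer, differed by -0.03 (SE 0.17, adjusted p 0.91, limma), with a 95% interval of -0.37 to 0.31. The pseudogene UQCRBP1 stood between 0.79 and 1.16 in H2-3 on day 1 and between -0.01 and 0.89 in H0, a difference of 0.71 (SE 0.21, adjusted p 0.0145, limma). Its probe shares an unbroken run of 31 bases with the probe of UQCRB, so the 2 signals are uncertain as measures of separate transcripts. A second probe of UQCRBP1 was well above background on 0 of 23 arrays (mean level -4.52). UQCRB itself differed by 0.34 (adjusted p 0.261, limma).

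None of the 11 ubiquitous and 5 tested alternative subunits of complex IV passed the test in H2-3 on day 1 with the percentile over all probes. COX5A, a ubiquitous subunit that then differed by -0.44 (adjusted p 0.0953, limma), was called lower under 3 of 5 scalings, at -0.63 to -0.78, and COX7A2 under 2 of 5. COX4I1, the largest nuclear subunit, stood between 6.63 and 7.07 in H2-3 and between 6.38 and 6.79 in H0, a difference of 0.21 (SE 0.16, adjusted p 0.37, limma). COX5B, another subunit on the matrix side, differed by 0.16 (SE 0.15, adjusted p 0.48, limma). Isoform partners were also short of the test with the percentile over all probes: COX6A1 differed by 0.33 and the muscle isoform COX6A2 by -0.16, COX6B1 by 0.18 and the testis isoform COX6B2 by -0.20, COX7A1 by 0.34, COX7A2 by -0.35 and COX7A2L by -0.06. The identity of the COX6B2 signal is uncertain, as described further on. COX7B differed by 0.08, COX8A by -0.02 and NDUFA4, a complex IV subunit despite its name, by -0.49 (SE 0.29, adjusted p 0.234, limma).

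ATP synthase gave calls in both directions. ATP5F1, subunit b of the peripheral stalk, had levels of 4.03, 3.89, 3.99, 3.59 and 3.84 in H2-3 on day 1, against 2.67, 3.31, 3.11, 2.43 and 3.24 in H0. Every H2-3 array lay above every H0 array, and the difference was 0.92 (SE 0.22, 1.89-fold), with the smallest adjusted p among the members, 0.00361 from limma. ATP5G1, 1 of the 3 genes whose products give the same mature subunit c of the membrane ring, had levels of 3.29, 3.66, 3.19, 3.29 and 3.35 in H2-3 on day 1, against 3.84, 3.77, 3.65, 3.81 and 3.62 in H0. H2-3 baboon 2 lay within the H0 range, and the difference was -0.38 (SE 0.13, adjusted p 0.0381, limma). The other ring genes differed by -0.24 (ATP5G2, adjusted p 0.214, called lower under 3 of 5 scalings) and 0.09 (ATP5G3, adjusted p 0.76), both from limma.

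ATP5S, a coupling factor needed for energy transfer through ATP synthase, showed the largest fall of the members with this scaling. It had levels of -2.0, -2.31, -2.46, -2.51 and -2.60 in H2-3 on day 1, against -0.82, -2.25, -1.79, -1.13 and -1.07 in H0. The H0 samples were spread widely and the second of them lay within the range of H2-3. The difference was -0.97 (SE 0.24, a 1.95-fold fall, adjusted p 0.00432, limma), and under normexp it was -0.34, still past the threshold. ATP5S is dim: the probe used was well above background on 4 of 5 H2-3 arrays of day 1 and on 5 of 5 H0 arrays, and a second probe of the gene differed by -1.49. Of the catalytic F1 subunits, ATP5A1 (alpha) differed by -0.35 (SE 0.17, adjusted p 0.137, limma) and ATP5B (beta) by 0.20 (SE 0.16, adjusted p 0.367, limma), and 0 of 5 F1 subunits passed the test with the percentile over all probes. ATP5A1 was called lower under the other 4 scalings, at -0.38 to -0.69.

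**Figure D3:**
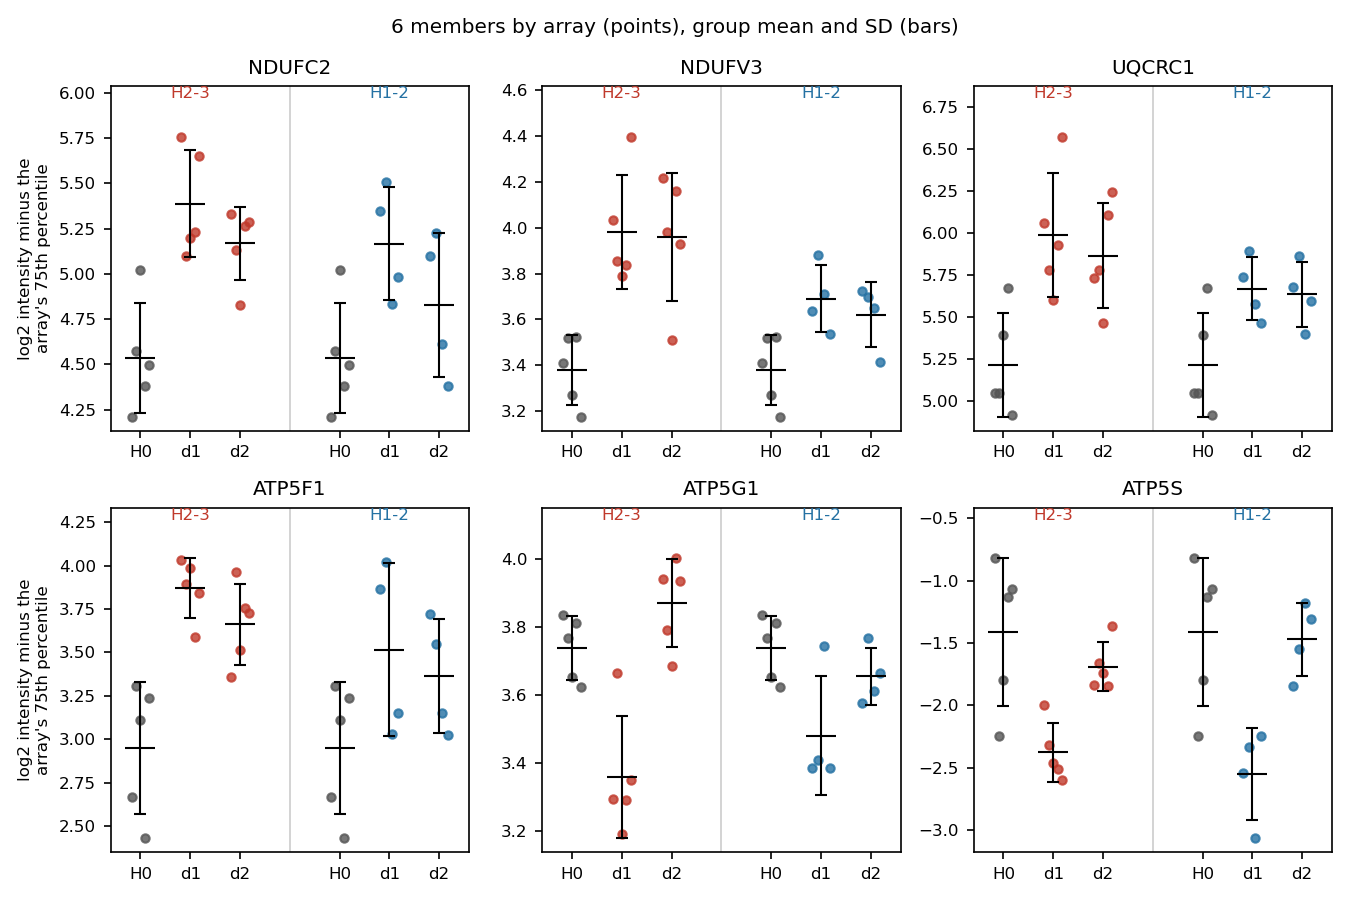
Level of 6 members (log2 intensity minus the array's 75th percentile, vertical axis) on each array before irradiation (H0) and 1 day (d1) and 2 days (d2) after it, for H2-3 (red) and H1-2 (blue), with group means and SD as black bars. The same 5 H0 arrays (grey) are drawn beside both categories; ATP5F1 and NDUFC2 of H2-3 on day 1 lie wholly above H0, and ATP5S is low on day 1 in both categories.

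The H0 arrays were scanned on 2 days, of which the second also held all day 1 arrays. With scan day as a block, 7 members were called in H2-3 on day 1, namely ATP5F1, NDUFA2, NDUFB7, NDUFC2, NDUFV3 and UQCRC1 higher and ATP5S lower; NDUFA12 was then -0.53 (adjusted p 0.0963) and ATP5G1 -0.34 (adjusted p 0.124), from limma. With slide as a block, where 1 H2-3 and 1 H0 array on 1 slide carry the contrast, 0 members were called, with ATP5F1 at 0.79 and ATP5S at -0.93. Without H0 sample 3, 18 members were called (12 higher, 6 lower). The share of all genes called in these fits is not given here. A change in the members is thus not separated from a change over the whole array.

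Day 2 in H2-3 was compared with H0 to see whether these differences lasted. In this comparison 6 of 84 members (7.14%) passed the test, against 14.8% of all genes, 5 of them higher (10.3% of all genes) and 1 lower (4.48% of all genes). Among the 5 were NDUFC2, NDUFV3, UQCRC1 and ATP5F1, which were also called on day 1 against the same H0 arrays. The comparison on day 2 shares those arrays with that on day 1, so the repeat is not independent. The median difference was 0.07 over the members and -0.03 over all genes, and 0 of 84 members differed by 1 or more, against 14.1% of all genes. Quantile normalisation and the deposited values gave 1 higher and 4 lower (5.95%, against 12.6% and 12.8% of all genes), the percentile over detected probes 1 higher and 3 lower (4.76%, against 17%), and normexp 6 higher and 2 lower (9.52%, against 15.2%). The members' median was 0.09 under normexp, against -0.04 for all genes, and -0.09 under the percentile over detected probes, against -0.18 for all genes. It was -0.10 under quantile normalisation and -0.11 with the deposited values, against -0.06 for all genes under both. The 1 lower call, COX6B2, whose signal is of uncertain identity, was called lower under all 5 scalings. NDUFC2, NDUFV3, UQCRC1 and ATP5F1, with positive differences under all 5, passed the test under 2 of them each. NDUFA8, an accessory subunit of complex I that differed by -0.39 (adjusted p 0.0924, limma) with the percentile over all probes, was called lower under the other 4.

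ATP5F1 had levels of 3.36, 3.96, 3.51, 3.75 and 3.73 in H2-3 on day 2, against 2.67, 3.31, 3.11, 2.43 and 3.24 in H0. The H2-3 arrays lay all above the highest H0 sample at 3.31, with a difference of 0.71 (SE 0.22, adjusted p 0.0348, limma). UQCRC1 differed by 0.65 (SE 0.20, adjusted p 0.0343, limma), NDUFC2 by 0.63 (SE 0.20, adjusted p 0.0425) and NDUFV3 by 0.58 (SE 0.16, adjusted p 0.0232), and in each of these 3 at least 1 H2-3 array lay within the H0 range.

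COX6B2 was called lower on day 2, with levels of 6.47, 5.64, 5.75, 6.0 and 4.92 in H2-3, against 6.71, 6.27, 6.52, 6.51 and 6.16 in H0. H2-3 baboon 1 lay within the H0 range and baboon 5 far below it, and the difference was -0.68 (SE 0.21, adjusted p 0.0375, limma). COX6B2 encodes a testis isoform, and its bright probe shares runs of 21 to 23 bases with probes of KIAA1875 and FAM118A and with 1 probe without a gene name. The longest of these runs, at chr19:55861365-55861387 (minus strand), is shown because it makes the identity of this signal uncertain.
COX6B2: gagtagctgggattacaggcatg
Those 3 other probes, well above background on all 23 arrays, differed by -0.70, -0.73 and -0.57 in H2-3 on day 2, which is close to the value of COX6B2. Another COX6B2 probe differed by -0.43, and its mean level over the arrays was -0.81, against 6.145 for the bright probe. Which transcripts gave the decrease of the bright probe was not tested.

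Of the members called on day 1 alone, NDUFB7 differed by 0.14 on day 2, UQCRBP1 by 0.47, NDUFA12 by -0.35, ATP5G1 by 0.13 and ATP5S by -0.28 (adjusted p 0.118 to 0.584, limma). Whether each day 2 value differs from day 1 is given further on. The anchors of the complexes differed by 0.02 (NDUFS1), 0.11 (NDUFV1), -0.14 (NDUFB8), -0.09 (UQCRC2), 0.19 (COX4I1), 0.19 (COX5B), -0.08 (ATP5A1) and 0.32 (ATP5B), and none passed the test. Of the genes with isoform partners, COX7A2 lay at -0.53 (called lower under 2 of 5 scalings), COX6A2 at -0.57 and NDUFA4 at -0.57, also short of the test, while COX6A1 lay at 0.21, COX6B1 at 0.07, COX7A1 at -0.01, COX7A2L at 0.10, COX7B at 0.10, COX8A at -0.18, ATP5G2 at -0.05 and ATP5G3 at 0.05. All day 2 arrays were scanned on a day of their own and on slides of their own, so scan and day cannot be told apart here or in any other comparison of day 2 with H0 or day 1. Without H0 sample 1, or without H2-3 baboon 4, 0 members were called. The count was 1 without H2-3 baboon 5 and 3 without H2-3 baboon 2, H0 sample 4 or H0 sample 5. As the share of all genes in these fits is not given, a loss of calls over the whole array is not separated from one in the members.

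**Figure D4:**
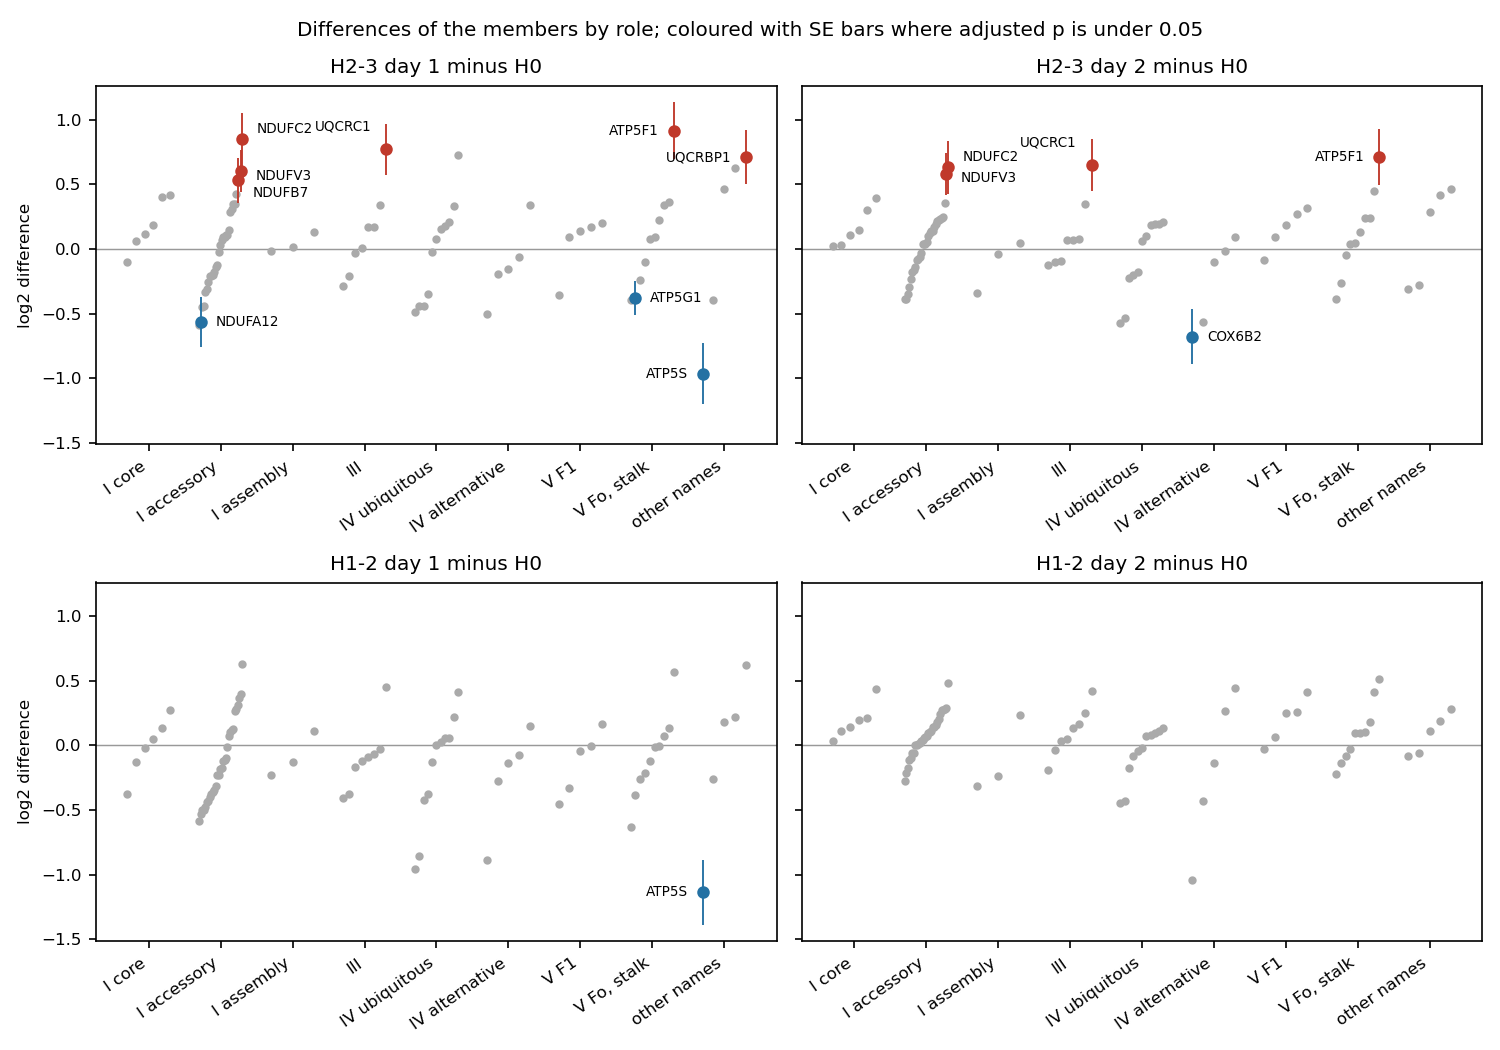
Log2 difference from H0 of the members (points; 1 called member is not drawn), ordered by role along the horizontal axis, for H2-3 (upper panels) and H1-2 (lower panels) on day 1 and day 2. Members past an adjusted p of 0.05 are named and drawn with SE bars, red when higher and blue when lower than H0; grey points did not pass, and most lie within 0.5 of zero.

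Day 1 in H1-2, the milder category, was set against the same H0 arrays. Here 1 of 84 members (1.19%) passed the test, against 8.59% of all genes (4.42% lower). It was ATP5S, with levels of -2.54, -2.34, -3.07 and -2.24 in H1-2 on day 1, against -0.82, -2.25, -1.79, -1.13 and -1.07 in H0. H1-2 baboon 4 and H0 sample 2 lay at nearly the same level. The difference was -1.14 (SE 0.25, a 2.20-fold fall, adjusted p 0.0155, limma), and the second probe differed by -1.0. It passed under all 5 scalings, but under normexp it was only -0.39, so the size of the fall in this dim gene depends on the background correction. The probe used was well above background on 3 of 4 H1-2 arrays of day 1. With scan day as a block the difference was -1.22 (adjusted p 0.0577, limma). Without H1-2 baboon 1, 0 members were called, and the share of all genes in that fit is not given.

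The members' median in H1-2 on day 1 was -0.11, against 0.09 for all genes, and 61 of 84 members lay below the median of all genes. Under quantile normalisation 10 members were called, all lower (11.9%, against 9.96% of all genes), under the percentile over detected probes 7, all lower (8.33%, against 11%), and under normexp 1 higher and 3 lower (4.76%, against 9.68%). The members' median was negative under all 5 (-0.07 to -0.23) and lay below that of all genes under each. With the percentile over all probes, 3 members were called without H0 sample 3 and 2 without H1-2 baboon 3. No share of all genes is given for these fits. Short of the test with the percentile over all probes, NDUFA4 differed by -0.96 (SE 0.31, adjusted p 0.0573, limma) and COX6C, a small complex IV subunit, by -0.85 (SE 0.30, adjusted p 0.0701, limma). In both, all H1-2 arrays lay below the H0 arrays, and both were called lower under 3 of 5 scalings. NDUFA8 differed by -0.53 (adjusted p 0.053) and NDUFB6, another accessory subunit of complex I, by -0.43 (adjusted p 0.119, limma), and both were called lower under 4 of 5 scalings. Genes that were higher in H2-3 on day 1 had values of 0.63 (NDUFC2), 0.57 (ATP5F1), 0.45 (UQCRC1), 0.37 (NDUFB7), 0.31 (NDUFV3) and 0.22 (UQCRBP1) here, with adjusted p between 0.0688 and 0.564 from limma. Of those lower in H2-3 on day 1, NDUFA12 lay at -0.59 (adjusted p 0.069, limma) and was called lower under 3 of 5 scalings, and ATP5G1 lay at -0.26. The anchors lay at -0.13 (NDUFS1), 0.05 (NDUFV1), -0.40 (NDUFB8), -0.07 (UQCRC2), 0.06 (COX4I1), 0.00 (COX5B), -0.33 (ATP5A1) and 0.00 (ATP5B).

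On day 2 in H1-2, 0 of 84 members and 0% of all genes passed the test against H0, while 3 members and 10.5% of all genes had an unadjusted p under 0.05. The members' median was 0.09, against -0.01 for all genes, and 1 of 84 members, COX6A2 (-1.05, SE 0.52), differed by 1 or more, against 4.56% of all genes. COX6A2 was well above background on 3 of 4 H1-2 arrays of day 2 and on 5 of 5 H0 arrays. ATP5S had levels of -1.84, -1.55, -1.18 and -1.31, within the H0 range, a difference of -0.06 (SE 0.25, adjusted p 0.942, limma). The anchors lay at 0.03 (NDUFS1), 0.20 (NDUFV1), 0.02 (NDUFB8), 0.42 (UQCRC1), 0.17 (UQCRC2), 0.14 (COX4I1), -0.02 (COX5B), 0.06 (ATP5A1) and 0.25 (ATP5B).

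**Figure D5:**
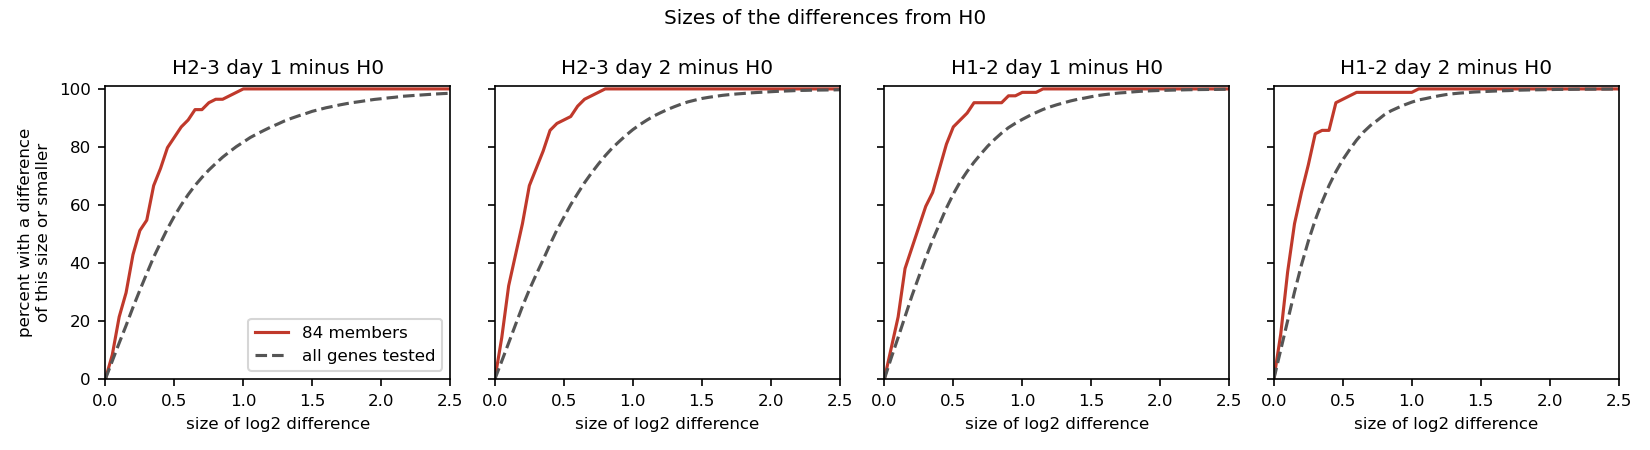
Share of genes (vertical axis, percent) whose log2 difference from H0 is of the given size or smaller (horizontal axis), for the 84 members (solid red) and all 21130 genes (dashed grey) in the 4 comparisons with H0. The line of the members lies above that of all genes in each panel, and it reaches 100% at a size of 1 or less in both H2-3 comparisons.

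The 2 categories were then compared directly, which asks whether the chain marks severity. On day 1, H2-3 against H1-2 gave 0 of 84 members and 0% of all genes past the test, with 3 members and 5.79% of all genes at an unadjusted p under 0.05. With the percentile over all probes, the members' median was 0.16, against 0.04 for all genes. In H2-3 on day 1 against H0, the sign of the members' median changed with the scaling. Members called against H0 in H2-3 differed between the categories by 0.35 (ATP5F1, 95% interval -0.13 to 0.83), 0.22 (NDUFC2, -0.23 to 0.67), 0.32 (UQCRC1, -0.12 to 0.76) and 0.17 (ATP5S, -0.35 to 0.69). On day 2, 0 of 84 members and 0% of all genes passed, with 0 members and 9.76% of all genes at an unadjusted p under 0.05, and the members' median was -0.02, against 0.02. A difference between the categories in these members was not detectable with 5 and 4 arrays a day.

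Between the days, H2-3 gave 1 called member of 84 (1.19%), against 2.97% of all genes, or 1.74% counting higher calls alone. It was ATP5G1, with levels of 3.94, 3.79, 3.69, 4.00 and 3.94 on day 2, against 3.29, 3.66, 3.19, 3.29 and 3.35 on day 1. All 5 day 2 arrays lay above all 5 day 1 arrays, and the difference was 0.51 (SE 0.13, adjusted p 0.0454, limma). ATP5S had levels of -1.84, -1.66, -1.74, -1.84 and -1.37 on day 2, against -2.0, -2.31, -2.46, -2.51 and -2.60 on day 1, without overlap (0.69, SE 0.24, adjusted p 0.084, limma). NDUFB7 differed by -0.39 (adjusted p 0.152), UQCRBP1 by -0.24, NDUFA12 by 0.22 and ATP5F1 by -0.21. The call of ATP5G1 was lost when baboon 2, 3, 4 or 5 of day 2 or baboon 1, 3, 4 or 5 of day 1 was left out, leaving 0 called members, and 2 were called without baboon 1 of day 2. Shares of all genes are not given for these fits.

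In H1-2, 0 of 84 members and 0% of all genes passed between the days, with 14 members (16.7%) and 23.5% of all genes at an unadjusted p under 0.05. The members' median was 0.17, against -0.08 for all genes. ATP5S differed by 1.08 (SE 0.26, adjusted p 0.122, limma) and its day 2 arrays all lay above its day 1 arrays. With the baboon number as a random replicate block in limma, ATP5S was called higher on day 2 in H1-2 (adjusted p 0.0299) and in H2-3 (adjusted p 0.0339). Whether a number marks the same animal on both days is not settled. Without baboon 2 of day 2, 1 member was called, with no share of all genes given for that fit. The difference between the categories in the change from day 1 to day 2 passed the test for 0 of 84 members and 0% of all genes, with 0 members and 1.99% of all genes at an unadjusted p under 0.05.

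Other genes of the pathway are set beside the members. Of all genes tested, 28.4% were called in H2-3 on day 1, 14.8% in H2-3 on day 2 and 8.59% in H1-2 on day 1. Values are given mainly for genes picked by a small p in these same data. Of the 6 genes of complex II and the mobile carriers, SDHB, the iron-sulfur subunit of complex II, was the 1 called gene in H2-3, by 0.82 on day 1 (SE 0.18, adjusted p 0.00227) and 0.74 on day 2 (adjusted p 0.0145), while SDHD, a membrane anchor of the same complex, differed by 0.17 on each day. Of 29 listed assembly factors of complexes III, IV and V, 15 were tested and 2 were lower in H2-3 on day 1, COX15, which makes heme A (adjusted p 0.00155), and COX11, which delivers copper (-1.0, SE 0.25, adjusted p 0.0045), and SCO2, a copper chaperone, was higher on day 2 (1.16, adjusted p 0.0343). COX15 was not well above background on any of 5 H2-3 arrays of day 1, against 5 of 5 H0 arrays, so the size of its fall has only a bound and is not given. In the tricarboxylic acid cycle, 1 of 13 genes was higher (SUCLG1) and 4 were lower (SUCLG2, IDH3A, DLD and FH) on day 1, and SUCLG1 alone was called on day 2. The 2 that varied most were partners in succinyl-CoA ligase: the alpha subunit SUCLG1 differed by 0.67 (adjusted p 0.00371) and the GTP-specific beta subunit SUCLG2 by -1.08 (adjusted p 0.000694), all from limma.

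Among 13 genes of protein import, outer membrane and chaperones, 1 was higher (VDAC2) and 3 were lower in H2-3 on day 1, namely TIMM50, the import receptor TOMM70A (-0.77, adjusted p 0.0196) and the import pore TOMM40 (-0.56, adjusted p 0.0307). The share called in this list was close to the 28.4% of all genes. Among 11 tested regulators of mitochondrial biogenesis, 2 were higher (PPARGC1B and ESRRA) and 4 lower (TFAM, POLRMT, PPRC1 and TFB1M), and the same 2 were higher on day 2. TFAM, which packs and transcribes mitochondrial DNA, differed by -1.10 (SE 0.22, adjusted p 0.000907) and POLRMT, the mitochondrial RNA polymerase, by -1.0 (SE 0.22, adjusted p 0.00244), from limma. TFAM was also lower in H1-2 on day 1 (-0.91, adjusted p 0.0231, limma), and on day 2 in H2-3 it lay at -0.52 (adjusted p 0.0992). COX16 and TIMM50 were the other genes of these lists called in H1-2 on day 1, both lower, and on day 2 in H1-2 none was called. The 7 tested subunits that are encoded by the mitochondrial genome and whose probes lie on it gave 0 calls in the 4 comparisons with H0. Their median difference was 0.01 in H2-3 on day 1 and -0.40 in H2-3 on day 2, where 6 of 7 lay below 0 (ATP8 at -0.73 the lowest, ND2 at 0.18 the highest).

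The probes of 2 names among the members overlap in part. ATP5L encodes a membrane subunit of ATP synthase, and ATP5L2 is a second gene copy. Aligned without gaps at the offset of best match, the 2 probes overlap by 41 bases, of which 35 match. Over the stretch of 30 bases shown they match except at 2, marked in capitals, at chr11:118279790-118279819 (plus strand) for ATP5L and chr22:43035963-43035992 (minus strand) for ATP5L2.
ATP5L: ggcatcattggctaTGatgtttgaagacca
ATP5L2: ggcatcattggctaGAatgtttgaagacca
They differed by 0.37 (ATP5L, adjusted p 0.134) and 0.46 (ATP5L2, adjusted p 0.0553) in H2-3 on day 1, by 0.24 and 0.28 on day 2, and by 0.07 and 0.18 in H1-2 on day 1, from limma. The signals of the 2 copies are uncertain as separate measures.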

How the data were processed

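Whole blood RNA (100 ng from 2.5 ml of blood in PAXgene tubes, per the labels' protocols) was hybridised in 1 colour to human Agilent arrays of 62976 spots. Per the file headers, the deposited intensity values (processed signals) and flags come from Agilent Feature Extraction 10.7.3.1, which subtracts background, and the flags mark spots well above background, saturated or outlying. The 75th percentile of signal was 80.95 to 156.4 per array, 41.4% to 51.3% of probes were well above background, and no member spot was saturated. The number of arrays limits the precision.

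From these intensities, control spots were left out. A spot flagged as outlying was left out only where the same probe had another spot without a flag. Flagged spots of single-spot probes, which most members have, thus stayed in. Log2 signals were averaged over the spots of a probe, and the array's 75th percentile over probes was then subtracted. The brightest of a gene's probes passing the detection rule was used. Of 50599 probes, 27215 were kept, for 21130 genes. The authors' deposited log2 value table (39726 probes, of which 39637 matched) correlated with the scanner values at 0.998 to 1.00 per array. Its medians were 4.71 on each array, its direction and log2 scale follow from that match, and the sources used here do not state its exact normalisation. It served as an alternative. In each comparison with H0 it gave the same numbers of higher and lower members as quantile normalisation. A count of scalings that holds both is thus not a count of independent checks.

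All 23 arrays entered 1 limma fit (limma 3.58.1, R 4.3.3, statmod 1.5.0) with 5 group means, two-sided tests and Benjamini-Hochberg adjustment over all genes, tested on simulated data beforehand. Called means an adjusted p under 0.05. The named genes are the members past the threshold (up to 6 in each direction), 9 anchor subunits, the isoform partners, and from each other list the 2 genes whose p over the 5 groups was smallest. The members and lists were chosen with earlier results of these data known. NDUFC1, NDUFA8, NDUFB6, UQCRB, COX5A, COX6C, NDUFA2, ATP5L, ATP5L2 and the NDUFAF genes were named after their values were seen. Replicates are separate baboons by the numbers in the titles. The titles number baboons within a category on both days, but whether a number marks the same animal on both was not settled. H0 numbers were not tied to irradiated animals. The values of 1 called member are not reported here, though the counts include it. Alternatives were the scaling, normexp (offset 50), the filter on dim probes, the probe rule, the blocks and leaving out each array. Slide as a random block and a count over subunits alone were chosen after seeing the data. Probe positions are those of the files (hg19); exon and UTR annotations were not used here.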

Additional observations from a re-analysis of the deposited data

Results flagged for a closer look

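In 5 of 95 groups of arrays, over 19 members, 1 array stood far from the others of its group by Dixon's criterion, which flags about 1 in 20 groups by chance. ATP5A1 stood at 5.79 in the fifth H2-3 baboon on day 1, while the others of that group lay between 5.14 and 5.27. NDUFV1 stood at 5.06 in the same array, against 4.43 to 4.53 in the others. ATP5G1 stood at 3.74 in the third H1-2 baboon on day 1, against 3.38 to 3.41. In H0, ATP5A1 stood at 6.07 in the fourth sample, against 5.56 to 5.69, and UQCRBP1 at 0.89 in the third, against -0.01 to 0.23.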

How the results depend on the processing

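The members called in H2-3 on day 1 (10) became 16 with the percentile over detected probes, 20 with quantile normalisation, 17 with normexp, 20 with the deposited values and 0 with slide as a fixed block, and 7 to 18 without 1 array. In H2-3 on day 2 (6) they became 2 with no filter on dim probes and 0 to 7 without 1 array. In H1-2 on day 1 (1) they became 7 with the percentile over detected probes, 10 with quantile normalisation, 4 with normexp, 2 with the mean over a gene's probes, 10 with the deposited values, and 0 with slide or scan day as a fixed block or for subunits alone; without 1 array they were 0 to 3. Between the days in H2-3 (1) they became 0 with no filter on dim probes, 2 with the baboon as a random replicate block, 0 with it as a fixed replicate block and 0 with slide as a random block, and 0 to 2 without 1 array. Between the days in H1-2 (0) they became 2 with the baboon as a random replicate block, and 0 to 1 without 1 array. Same-numbered arrays of the 2 days deviated from their group means together at correlations of 0.0566 to 0.39 in H1-2, where 0 of 4 correlated best with their own number, and of 0.0544 to 0.437 in H2-3, where 4 of 5 did, so the pairing behind the block is not settled. In H1-2, numbers 1 and 2 shared a slide on each day and numbers 3 and 4 another, so animal and slide cannot be told apart. The random replicate block left the counts of 10, 6 and 1 against H0 as they were. The comparisons of H1-2 on day 2 with H0, of the categories on each day, and of the change between days gave 0 in every fit without 1 array. Over 18 called member results, 346 alternative values held 240 that kept direction and call, 106 that kept direction but not the call, and 0 that changed direction. The causes were not tested. Throughout, counts of members without 1 array, with a block or with another probe rule are given without the share of all genes in the same fit. They do not separate a change in the members from a change over the whole array. Signal over background limits ATP5S, NDUFB3, COX6A2 and COX8C, which were not well above background on every array.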
